A study of Mus musculus with 4 samples.

Results

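Untreated p53-/- mouse embryonic stem (ES) cells were compared with untreated p53+/+ ES cells, 1 library of each, which are 2 of the 4 libraries of the study. The other 2 libraries came from cells of the same genotypes given 0.5 uM Adriamycin (doxorubicin, a topoisomerase II poison that breaks DNA) for 8 h, and they are set beside the untreated pair where stated. All cells had a mixed strain background, given as C57BL/6X129Sv, were below passage 20 and grew in Knockout DMEM with 15% serum and 1000 units/ml of leukemia inhibitory factor (Lif), which holds ES cells undifferentiated. The RNA is labelled as carrying a poly(A) tail, and the protocol also lists an exome enrichment kit, a hybrid capture of coding sequence. The labels do not say which part of Trp53 was deleted, whether each genotype is 1 clone, whether feeder cells were used or whether the lines are sisters. With 1 library per genotype no difference below has a replicate check, no p-value can be given, and genotype cannot be told apart from anything else that differed between the cultures.

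All values are FPKM, which corrects fragment numbers for the length of the transcript and the size of the library, with the transcripts of a gene summed. Of 22398 genes, 11995 had 1 FPKM or more in at least 1 untreated library and are the genes described. A gene that passed through only 1 library is below that level in the other. The filter therefore fixed the direction of such genes, here and in the lists below. A difference is p53-/- minus p53+/+ on the log2(FPKM + 1) scale, where the added 1 shrinks the differences of low genes, and a gene is called higher or lower at a difference of 1 or more. By that rule 456 genes (3.8%) were higher and 409 genes (3.41%) were lower in p53-/- cells, with a median over all genes of -0.05. Main transcripts whose FPKM bounds did not overlap between the libraries were not particular to the called genes. Pml (-0.49) and Rchy1 (-0.32), members of the p53 lists under the step, had them too. The bounds cover counting and assignment error only. The gene lists used below hold 65 of the higher and 60 of the lower genes, so 391 and 349 belong to no list. Aligned depth, estimated from coverage, was 4.32 gigabases in p53+/+ and 3.34 gigabases in p53-/- cells.

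p53 is a transcription factor held low by Mdm2 and Mdm4, and stabilised when DNA is damaged. It binds a pair of half-sites near its target genes and raises transcripts that halt the cell cycle, promote cell death, repair DNA and adjust metabolism, along with inhibitors that shut p53 off again. A basal p53 target is a gene that p53 holds above its floor without added damage. ES cells divide fast, carry much p53 protein, and can hold small numbers of cells of other states, such as primitive endoderm-like and 2-cell-like cells.

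Trp53 itself, which encodes p53, stood at 216 FPKM in p53+/+ against 78.6 FPKM in p53-/- untreated cells, and at 165 and 76.5 FPKM after Adriamycin. Both p53-/- libraries lay below both p53+/+ libraries, with a difference of -1.45 untreated and -1.10 treated. The gene lies on chromosome 11 at 69393861 to 69405375 (mm9) and has 2 transcript models in the files. The main one stood at 161 FPKM (bounds 156 to 167) against 43.4 (40.3 to 46.5), and the other at 55.4 (52.1 to 59.0) against 35.2 (32.4 to 38.0). Transcript from the locus was still measured in p53-/- cells. A sum over a whole transcript does not show which exons it holds, so these values have the direction of the labels and do not test the deletion.

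The p53 target lists held 82 members in 5 roles, of which 80 were in the files and 78 passed the filter. In p53-/- cells 21 of the 78 (26.9%) were lower and 1 was higher, against 3.41% and 3.8% of all genes. Their median difference was -0.53, and 65 of the 78 (83.3%) lay below 0, against 54.5% of all genes. The 5 lists summed to 2748 FPKM in p53+/+ against 1923 FPKM in p53-/- cells. After Adriamycin the sums were 5677 and 1916 FPKM. The p53-/- sums lay close together, and the p53+/+ sum was higher after treatment.

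Promoters of 4 genes are shown because their genes were lower in p53-/- cells and the window holds a p53 site pair. A pair was counted where 2 copies of the p53 half-site consensus, a palindrome read on both strands, lay up to 13 bases apart with at most 2 mismatches in all. The windows run from 250 bases before to 50 bases after the RefSeq start (GRCm38.p6), and capitals mark the pair. Ccng1 lies at chr11:40755237-40755536 on the minus strand with 1 mismatch, and Zfp365 at chr10:67912613-67912912, minus, with 2. Trp73 lies at chr4:154097124-154097423, minus, with 2 mismatches, and Rps27l at chr9:66946163-66946462, plus, with 1.
Ccng1: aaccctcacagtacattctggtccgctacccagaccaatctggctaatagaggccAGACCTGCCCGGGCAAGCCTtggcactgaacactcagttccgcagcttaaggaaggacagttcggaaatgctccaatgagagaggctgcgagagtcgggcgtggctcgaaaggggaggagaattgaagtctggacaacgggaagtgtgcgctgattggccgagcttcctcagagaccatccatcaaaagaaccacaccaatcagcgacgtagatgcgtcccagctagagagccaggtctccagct
Zfp365: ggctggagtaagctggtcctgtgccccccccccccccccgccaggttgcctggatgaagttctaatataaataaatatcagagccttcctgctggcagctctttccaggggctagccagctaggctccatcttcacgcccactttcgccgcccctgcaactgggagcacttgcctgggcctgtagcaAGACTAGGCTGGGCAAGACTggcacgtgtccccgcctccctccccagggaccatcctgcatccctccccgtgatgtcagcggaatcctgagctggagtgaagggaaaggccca
Trp73: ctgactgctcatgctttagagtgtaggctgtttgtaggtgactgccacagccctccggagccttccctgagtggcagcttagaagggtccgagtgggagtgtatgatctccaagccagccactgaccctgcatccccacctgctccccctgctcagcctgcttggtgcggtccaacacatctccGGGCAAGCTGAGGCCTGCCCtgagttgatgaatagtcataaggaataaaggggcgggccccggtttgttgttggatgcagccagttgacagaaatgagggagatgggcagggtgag
Rps27l: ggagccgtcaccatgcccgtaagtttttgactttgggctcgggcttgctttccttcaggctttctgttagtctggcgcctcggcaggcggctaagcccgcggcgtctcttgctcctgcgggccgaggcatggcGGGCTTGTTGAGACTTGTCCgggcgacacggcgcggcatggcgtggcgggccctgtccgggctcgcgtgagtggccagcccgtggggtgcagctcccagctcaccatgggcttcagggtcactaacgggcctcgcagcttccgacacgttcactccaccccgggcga
In each of the 4 the half-sites are adjacent, without spacer bases. The pair starts 195 bases before the start site in Ccng1, 63 in Zfp365, 66 in Trp73 and 117 in Rps27l. Polk and Gtse1, also lower, hold a pair with 1 mismatch each.

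Such a pair was found in 10.1% of all 32851 RefSeq promoters of this length. It was found in 6 of 27 promoters (22.2%) of the lower p53 target members, which belong to 18 genes with a promoter in the table, and in 9 of 59 (15.3%) of the other members past the filter. The fibroblast lists described below held it in 2 of 36 promoters (5.56%). The share with at least 1 half-site without mismatch had the opposite order, in 4 of 27 promoters (14.8%) of the lower members and 13 of 59 (22.03%) of the other members, against 8.36% of all promoters. These shares rest on few promoters, many p53 sites lie outside such windows, and a match is a description of letters, not of binding.

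Among the 12 feedback genes, which act back on p53, all 12 lay below 0 and 5 were lower, with a median of -0.67. Trp53inp1, a nuclear protein that promotes p53 activity and autophagy, stood at 27.5 FPKM in p53+/+ against 2.01 FPKM in p53-/- untreated cells, and at 119 and 3.62 FPKM treated, an untreated difference of -3.24. Ccng1, the cyclin G1 whose promoter is shown, had 58.1 against 9.62 FPKM untreated and 214 against 13.9 FPKM treated (-2.48 untreated). For both genes each p53-/- library lay below each p53+/+ library. Zmat3, a zinc finger protein that binds RNA, had 24.6 against 7.03 FPKM (-1.67), and Mdm4 19.5 against 7.29 FPKM (-1.31). Trp73, the p53 relative p73, was near its floor in p53-/- cells at 0.0848 FPKM against 1.33 FPKM (-1.10), and reached 46.01 FPKM in treated p53+/+ cells against 0.0672 in treated p53-/- cells. Mdm2, the ligase that marks p53 for destruction, did not reach the step: it had 32.6 FPKM against 17.7 FPKM (-0.84). Ppm1d, the phosphatase that reverses damage signalling, had 7.72 against 7.58 FPKM untreated and 28.3 against 8.24 FPKM treated.

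Of 14 arrest genes 5 were lower and none higher, with a median of -0.56. Psrc1, a spindle protein, had 61.1 FPKM in p53+/+ against 10.4 FPKM in p53-/- cells (-2.45), and Zfp365, a zinc finger protein that guards replication forks, had 5.76 and 0.381 FPKM (-2.29). The Zfp365 bounds were 5.14 to 6.31 and 0.251 to 0.501. Btg2, an antiproliferative cofactor of mRNA decay, had 9.46 and 1.84 FPKM (-1.88), with bounds of 8.34 to 10.1 and 1.46 to 2.20. Plk2, a polo-like kinase, and Gtse1, which returns p53 to the cytoplasm, were the other 2 (-1.64 and -1.05). Plk2 had 8.05 FPKM untreated and 109.8 FPKM treated in p53+/+ cells, and 1.91 and 2.79 FPKM in p53-/- cells. Cdkn1a, the p21 inhibitor through which p53 stops G1 cells, was under the step before damage: 26.2 FPKM in p53+/+, 17.997 FPKM in p53-/- (-0.52). After Adriamycin it stood at 85.8 and 24.6 FPKM.

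The apoptosis list had 4 lower members and 1 higher member of 18, with a median of -0.75. Eda2r, a death-domain receptor of the TNF receptor family, showed the widest gap, 12.5 FPKM against 0.407 FPKM untreated and 33.3 against 0.5503 FPKM treated (-3.26 untreated). Bbc3 (Puma) and Pmaip1 (Noxa), BH3 proteins that open the mitochondrial pathway, had 11.01 against 2.19 FPKM (-1.91) and 14.2 against 4.002 FPKM (-1.60). Apaf1, the scaffold of the apoptosome, had 7.48 against 1.94 FPKM (-1.53). In all 4 genes both p53-/- libraries were below both p53+/+ libraries. Bax, the pore former, and Perp, a membrane protein of desmosomes, lay short of the step at -0.85 and -0.87, on 225 against 124 and 9.06 against 4.49 FPKM. The higher member was Tnfrsf23, a decoy receptor for the death ligand TRAIL, at 0.289 FPKM in p53+/+ against 2.28 FPKM in p53-/- cells (1.35). Fas, another death receptor, was under the filter in both untreated libraries (0.253 and 0.0744 FPKM) and reached 11.2 FPKM in treated p53+/+ cells.

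Among repair and metabolic targets the untreated medians lay closer to 0. Of 12 repair genes 3 were lower (median -0.29): Mgmt, which removes alkyl groups from guanine, had 23.1 against 9.14 FPKM (-1.25), Polk, a translesion polymerase, 3.12 against 0.911 (-1.11), and Rps27l, a ribosomal protein paralogue, 420.3 against 202 (-1.05). The excision repair genes Xpc and Ddb2 had 0.19 and 0.05, near 0. Of 22 metabolic genes 4 were lower (median -0.33): Phlda3, an inhibitor of Akt, with 22.01 against 5.96 FPKM (-1.72), Dcxr, a xylulose reductase, with 18.02 against 5.601 (-1.53), Cpt1c, a carnitine palmitoyltransferase, with 14.4 against 5.03 (-1.35), and Lpin1, a phosphatidate phosphatase, with 7.15 against 3.07. Sco2, an assembly factor of cytochrome oxidase, and Ninj1, a membrane rupture protein, lay above 0 at 0.63 and 0.37. Both stood above their p53-/- level in treated p53+/+ cells, at 18.05 against 7.43 and 89.3 against 20.7 FPKM.

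**Figure D1:**
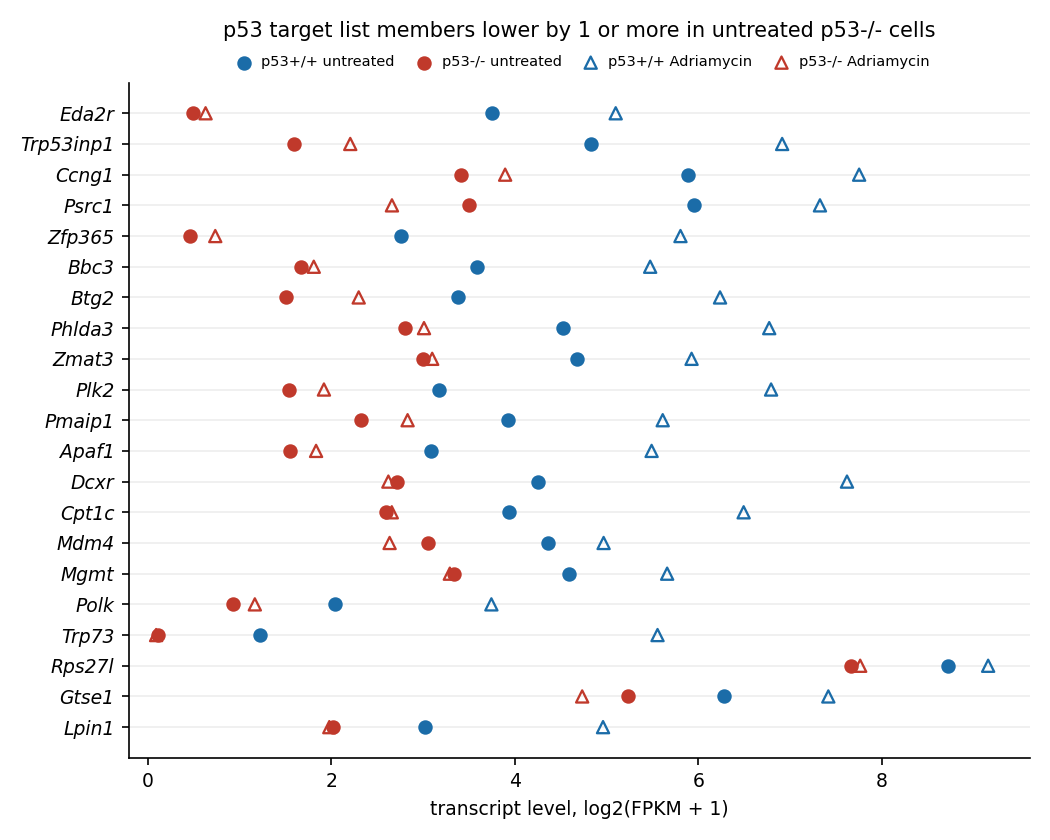
Level on the log2(FPKM + 1) scale of the 21 p53 target list members lower by 1 or more in untreated p53-/- cells, ordered by the size of the difference, 1 library per symbol with no error. Circles are untreated and triangles Adriamycin-treated libraries, blue p53+/+ and red p53-/-; for each gene both red symbols lie left of both blue ones.

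Every one of the 21 lower members was lower by 1 or more in the treated pair as well, beside 263 of all 409 lower genes (64.3%). That pair shares no library with the untreated pair, and in it 13.2% of 12898 genes were lower and 6.78% were higher. In the treated pair 48 of 79 members were lower. The Adriamycin responses, which do share the untreated libraries, are given side by side only: 41 of 79 members were higher after treatment in p53+/+ cells, where 11.8% of genes were, and 0 of 73 in p53-/- cells, where 0.41% were. The lists' medians in the untreated pair, the treated pair and the p53+/+ response were -0.67, -2.00 and 1.05 for feedback. They were -0.56, -2.20 and 1.39 for arrest, and -0.33, -1.66 and 1.63 for metabolism. For apoptosis they were -0.75, -1.51 and 0.93, and for repair -0.29, -0.07 and 0.29.

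Of the 15 genes with the largest higher values in p53-/- cells, most encode extracellular matrix of fibroblasts. Of 27 matrix genes past the filter, from a list of 29 with 28 in the files, 21 were higher and none was lower, with a median of 2.95 and every member above 0. Many members, such as Col1a1, Bgn and Fbn1, were under 1 FPKM in p53+/+ cells. They passed only through the p53-/- library and could not lie below 0, so these counts are no test of direction. The list summed to 380 FPKM in p53+/+ against 1265 FPKM in p53-/- untreated cells, and to 415 and 1168 FPKM in the treated pair. Bulk RNA cannot tell more cells of a type from more RNA per cell.

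Col1a1 and Col1a2, the chains of type I collagen, stood at 0.727 and 0.169 FPKM in p53+/+ cells and at 151 and 69.7 FPKM in p53-/- cells. After Adriamycin they had 5.03 and 0.206 FPKM in p53+/+ and 117 and 59.8 FPKM in p53-/- cells. Both p53-/- libraries were above both p53+/+ libraries, with untreated differences of 6.46 and 5.92. Bgn (biglycan, a matrix proteoglycan) had 0.912 against 93.8 FPKM, and Thbs1 (thrombospondin, an adhesive glycoprotein) 0.704 against 76.1 FPKM (5.63 and 5.50). Lox, which cross-links collagen, had 0.06401 against 21.3 FPKM (4.39), and Tnc (tenascin C) 0.00527 against 45.5 FPKM (5.53). Another 4 members, Mgp (an inhibitor of calcification), Col3a1, Postn (periostin) and Dcn (decorin), were listed at 0 in untreated p53+/+ cells and at 70.1, 21.8, 7.44 and 2.96 FPKM in p53-/- cells. Members that ES cells and endoderm also make were among those under the step: Sparc had 151 against 192 FPKM (0.34) and Fn1 (fibronectin) 101 against 189 FPKM (0.89).

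**Figure D2:**
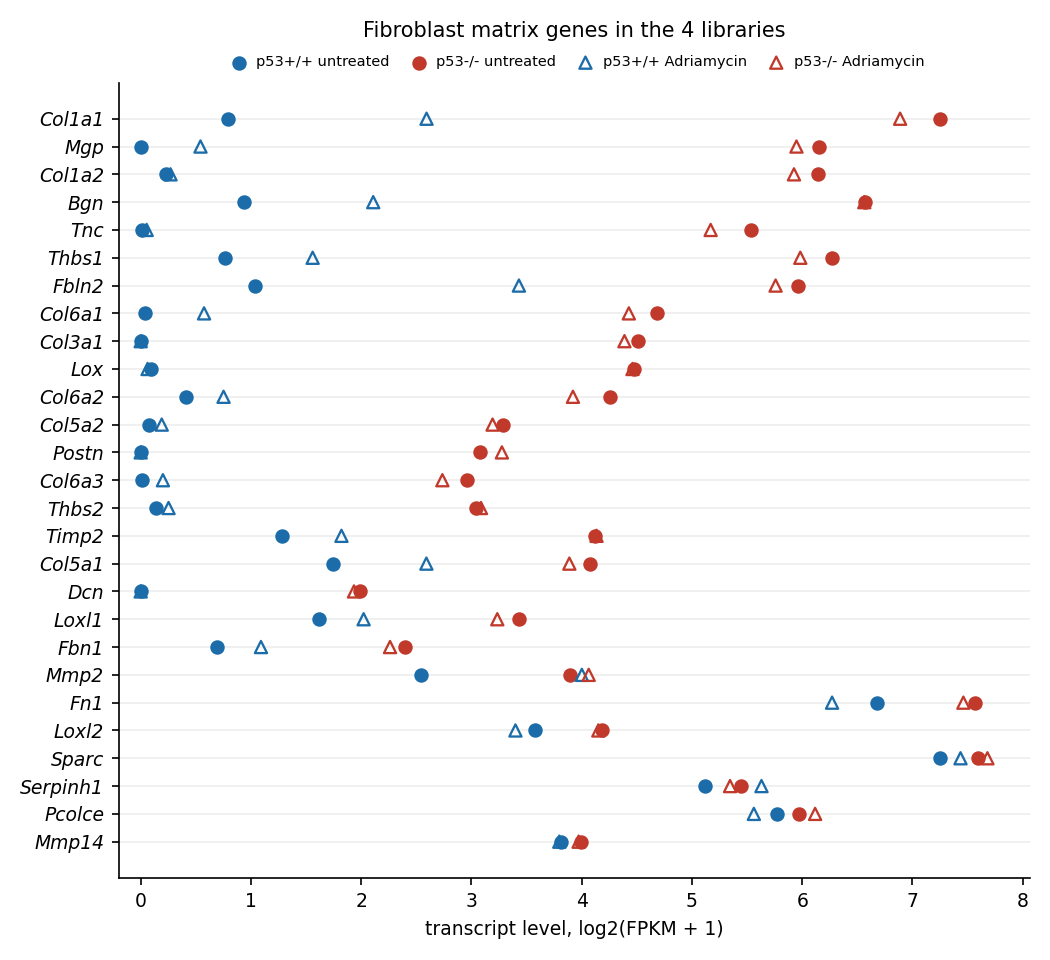
Level of the 27 fibroblast matrix genes past the filter on the log2(FPKM + 1) scale, ordered by their untreated difference, 1 library per symbol with no error. Blue symbols are p53+/+, red p53-/-, circles untreated and triangles treated; Col1a1 heads the plot at 0.727 against 151 FPKM, and the gap narrows down the list to Sparc, Fn1 and others under the step.

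The genes that define fibroblasts were also partly higher. Of 24 identity genes 14 passed the filter, 6 were higher and none was lower (median 0.78). Members such as S100a4, Cdh11 and Prrx1 passed only through the p53-/- library and could not lie below 0. The list summed to 177 FPKM in p53+/+ against 332 FPKM in p53-/- cells, of which Vim (vimentin, an intermediate filament also made by ES cells) gave 151 and 245. The 6 higher genes were S100a4 (a calcium binding protein, 0.239 against 30.1 FPKM), Cdh11 (a mesenchymal cadherin, 0.0181 against 4.96), Thy1 (5.502 against 16.5), Prrx1 (a mesenchymal homeobox factor, 0 against 3.12), Pdgfrb (2.11 against 5.49) and Twist2 (0.0326 against 2.66). Pdgfra, the other PDGF receptor, was not among them at 2.22 against 0.898 FPKM. The number of members listed at 0 was 6 in p53+/+ cells and 1 in p53-/- cells, Tcf21 (a mesenchymal bHLH factor). The HOX genes, which give fibroblasts their position in the body, passed the filter in 2 of 39 cases, with neither called, and summed to 6.29 and 7.92 FPKM. How many cells of which kind the p53-/- culture held was not tested.

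Contractile genes, made by myofibroblasts and by stretched cells, had 8 of 14 members higher, beside 3.8% of all genes, and a median of 1.39. Acta2, Cnn1 and Actg2 passed the filter only through the p53-/- library and could not lie below 0. Acta2 (smooth muscle actin) had 0.535 FPKM in p53+/+ against 22.6 FPKM in p53-/- cells, and Tagln (transgelin) 3.79 and 37.7 FPKM, for differences of 3.94 and 3.01. With only the main transcript of each gene the median was 0.99. In the treated pair the median of the same members was 0.41, and 5 of the 8 were higher there, beside 60.3% of all higher genes. In that pair 3 of 13 members were lower, Des (desmin, -2.08), Cald1 (caldesmon, -1.96) and Lmod1 (leiomodin, -1.55), none of which passed the step untreated.

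In untreated cells 13 genes were under 0.1 FPKM in p53+/+ and at 5 FPKM or more in p53-/- cells, and 8 of the 13 are in the fibroblast lists. The others were Inhba (activin A subunit), Mmp3 (a matrix protease), Grem1 (a BMP antagonist), Cav1 (caveolin) and Tm4sf1 (a membrane protein), of which the last 3 were named after their values were seen. Inhba had 16.2 FPKM without and 12.7 FPKM with Adriamycin in p53-/- cells and was listed at 0 in both p53+/+ libraries. Mmp3 had 14.6 and 15.9 FPKM against 0 and 0. In the opposite direction 3 genes met the rule, Gm21312, Gm6793 and the ribosomal protein copy Rps27rt, also named after their values were seen. Gm21312 had 22.5 FPKM without and 29.1 FPKM with Adriamycin in p53+/+ cells. Gm6793 and Rps27rt had 14.4 and 6.11 FPKM in untreated p53+/+ cells but were near 0 in treated p53+/+ cells, so they did not follow genotype in the treated pair.

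As nearly all genes did, the matrix genes stood at like levels in both p53-/- libraries. Of the 21 higher matrix genes 20 were also higher in the treated pair, and within p53-/- cells 0 of 27 matrix genes differed by 1 or more between untreated and treated cultures, with a median of -0.11, beside 0.41% of all genes higher and 0.502% lower. Of all genes higher in the untreated pair 275 of 456 (60.3%) were also higher in the treated pair, which is 31.5% of the 874 genes higher there. Of the lower genes 263 of 409 (64.3%) were also lower, which is 15.5% of the 1697 lower there. Whether the treated and untreated dishes of a genotype were plated from 1 culture is not given, so the treated pair is no independent replicate of the genotypes.

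**Figure D3:**
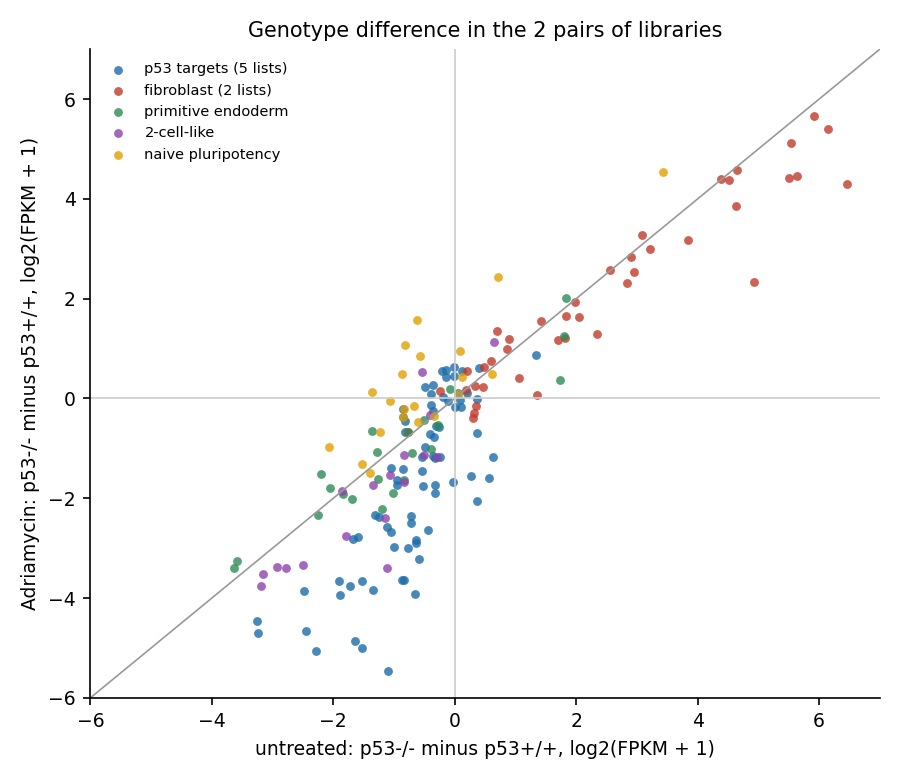
Genotype difference on the log2(FPKM + 1) scale in the untreated pair (x axis) and the treated pair (y axis) for members of 5 groups of lists past the filter, with the line of equal differences. The points of both the fibroblast and the p53 target lists lie mostly below the line. The medians are 1.99 untreated and 1.63 treated for fibroblast genes, and -0.53 and -1.51 for p53 targets. Some fibroblast genes lie far from the line, such as Col1a1 (6.46 and 4.30) and Fbln2 (4.93 and 2.33).

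ES cell identity was present in both libraries. Pou5f1 (Oct4) had 948 FPKM in p53+/+ against 658 FPKM in p53-/- cells, Sox2 142 and 122, and Nanog 310.0 and 194. The 17 core pluripotency genes had a median of -0.36. The median of the same members in the treated pair was 0.10. Of 21 naive pluripotency genes 6 were lower and 1 was higher, with a median of -0.67 untreated and 0.10 treated. Tfcp2l1, a factor of naive cells downstream of Lif, had 57.7 against 12.9 FPKM untreated and 27.4 against 13.5 FPKM treated, and Tbx3 had 48.6 against 16.2 FPKM untreated (-2.08 and -1.53). The higher member, Dppa3 (Stella, which guards maternal methylation), stood at 2.45 and 0.956 FPKM in the p53+/+ libraries and at 35.996 and 44.6 FPKM in the p53-/- libraries.

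Genes of the formative epiblast and early neural plate were higher in 4 of 15 cases, with none lower and a median of 0.86 untreated and 1.04 treated. Nes (nestin) had 0.675 against 8.85 FPKM, Zic2 6.01 against 23.3 and Pou3f1 (Oct6) 2.17 against 7.59. Otx2, a factor of the formative state, lay just short of the step at 15.1 against 30.6 FPKM (0.97). All 4 higher members were also higher in the treated pair, beside 60.3% of all higher genes. The Nodal inhibitors Lefty1 and Lefty2 were higher at 34.3 against 94.7 and 29.6 against 115 FPKM, while Nodal itself was lower at 30.03 against 13.1 FPKM.

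Primitive endoderm genes had 12 of 22 members lower, with 3 higher and a median of -1.10, and list sums of 543 FPKM in p53+/+ against 366 FPKM in p53-/- cells. The factors that set this lineage, Gata4 and Gata6, had 5.32 against 0.529 and 3.94 against 0.531 FPKM. Both passed the filter only through the p53+/+ library and could not lie above 0. Gata4 bounds were 4.63 to 5.88 and 0.357 to 0.700. In the treated pair Gata4 had 5.05 against 0.753 FPKM. Dab2, an endocytic adaptor, had 8.88 against 1.14 FPKM, Cubn (cubilin, its cargo receptor) 4.41 against 0.139 and Lama1 (laminin of the basement membrane) 35.7 against 9.28. The 3 higher members were Krt19 (a keratin), Plat (a plasminogen activator) and Thbd (thrombomodulin), which other epithelia and endothelia also make. Of the 12 lower members 11 were also lower in the treated pair, beside 64.3% of all lower genes.

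The 2-cell list, genes of the transient state that resembles the 2-cell embryo, had 11 of 18 members lower, none higher and a median of -1.13. The list summed to 695 FPKM in p53+/+ against 170 FPKM in p53-/- cells, and to 977 and 176 FPKM in the treated pair. Zscan4f stood at 183 and 275 FPKM in the p53+/+ libraries and at 25.9 and 25.1 FPKM in the p53-/- libraries, and the differences of the other 4 copies ran from -3.19 to -2.50. The Zscan4 copies are near-identical, so how reads were divided between them is uncertain, and their sum was 537 against 68.9 FPKM. Duxf3 (Dux, the factor that switches this state on) had 3.04 against 0.868 FPKM untreated and 20.5 against 1.05 FPKM treated. All 11 lower members were lower in the treated pair too, beside 64.3% of all lower genes.

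Trophoblast genes were higher in 6 of 13 cases, beside 3.8% of all genes, with a median of 0.51. These were mostly keratins of simple epithelia, such as Krt18 (10.05 against 31.1 FPKM). The others were the placental homeobox gene Esx1 (1.04 against 11.6 FPKM) and the transcription factor Hand1 (1.56 against 4.46 FPKM). Of the 6 higher members 3 were also higher in the treated pair, beside 60.3% of all higher genes. The keratins Krt7 (-0.43), Krt8 (0.77) and Krt19 (0.37) did not reach the step there. Cdx2, which defines the lineage, was under the filter in both libraries at 0.0746 and 0.198 FPKM. Of blood and endothelial genes 9 of 22 passed and 3 were lower: Srgn (a granule proteoglycan, 14.6 against 0.257 FPKM), Laptm5 (a lysosomal protein, 45.03 against 4.86) and Eng (endoglin, 21.3 against 2.91). Ptprc (CD45), which marks blood cells, was listed at 0 and 0.0194 FPKM. The list summed to 112 FPKM in p53+/+ and to 49.4 in p53-/- cells, with 4 members listed at 0 in the former and none in the latter.

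**Figure D4:**
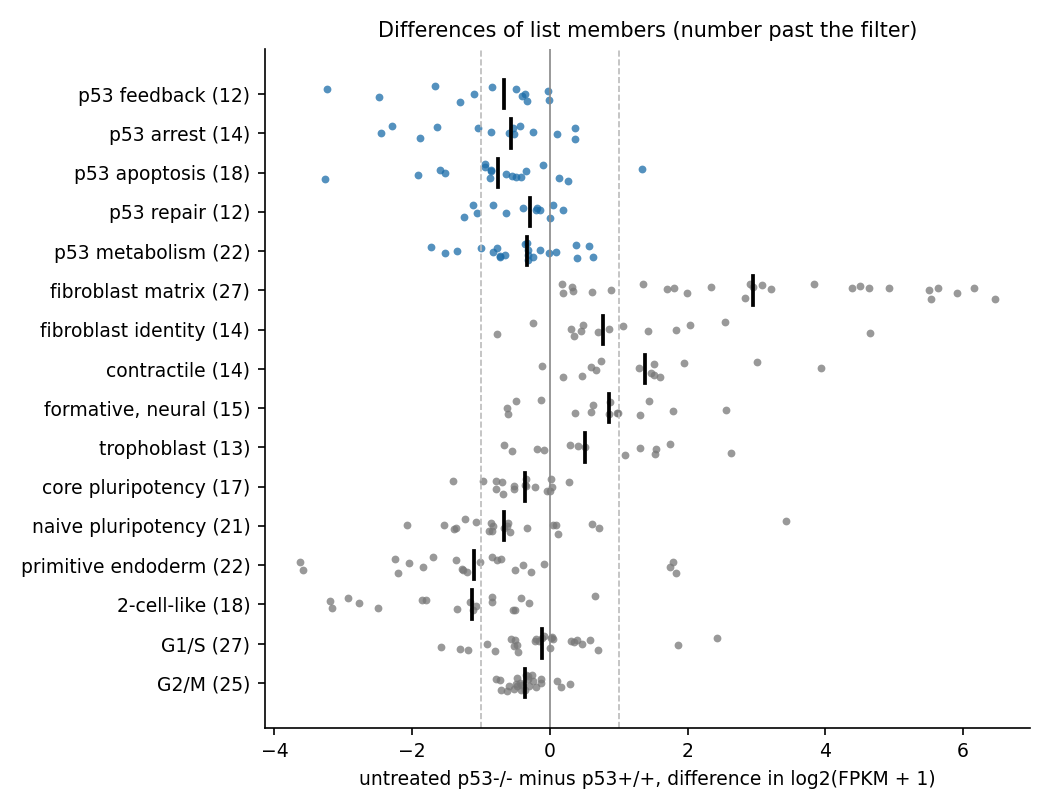
Difference of each member past the filter (dots) and the median (black bar) for 16 gene lists, untreated p53-/- minus p53+/+ on the log2(FPKM + 1) scale, with dashed lines at the step of 1; the number past the filter stands beside each name. Medians run from 2.95 for fibroblast matrix to -1.13 for the 2-cell list, and the 5 p53 lists (blue) lie between -0.75 and -0.29.

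Of 25 G2/M genes 0 were called in either direction, with a median of -0.37 and 22 below 0. The 27 G1/S genes had a median of -0.11, with 2 higher and 3 lower. The higher ones were the Cdkn2 inhibitors: Cdkn2a (Ink4a and Arf, the latter an inhibitor of Mdm2) had 10.4 FPKM in p53+/+ against 60.5 FPKM in p53-/- untreated cells and 10.97 and 58.3 FPKM treated. Cdkn2b had 0.911 against 5.97 FPKM untreated and 12.5 against 7.61 FPKM treated, where the p53+/+ library was the higher one. The lower ones were Rb1, the retinoblastoma protein, with 3.998 against 0.677 FPKM (bounds 3.55 to 4.42 and 0.514 to 0.849), E2f2 with 6.64 against 2.097 and the inhibitor Cdkn1b (p27) with 10.6 against 4.08.

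Imprinted genes, expressed from 1 parental copy, had 4 of 26 members higher and none lower (median 0.38), beside 3.8% and 3.41% of all genes. Of the 4 higher members 2 were also higher in the treated pair, beside 60.3% of all higher genes. Igf2, a fetal growth factor, had 1.795 against 27.5 FPKM untreated and 1.83 against 25.7 FPKM treated, and Meg3, a long noncoding RNA, 17.2 against 36.2 FPKM untreated. Stress and interferon genes had 6 of 17 higher, among them Ccl2 (a chemokine, 0.238 against 3.96 FPKM) and Hmox1 (heme oxygenase, 42.8 against 98.5 FPKM). Of these 6 genes 3 were also higher in the treated pair. The median of this list was 0.45 untreated and, for the same members, 0.08 in the treated pair. Of the Y-linked genes Kdm5d, a histone demethylase, was near 0 in the p53+/+ libraries at 0.0276 and 0.0286 FPKM and stood at 1.46 and 1.23 FPKM in the p53-/- libraries, while Ddx3y and Eif2s3y were well above 1 FPKM in both untreated libraries (13.4 against 7.38 and 35.7 against 30.3).

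The differences were also sorted by chromosome. Genes of chromosome 8 had a median difference of 0.42 (657 genes, 85.1% above 0), and genes of chromosome 11 one of 0.33 (1020 genes, 77.9% above 0). The medians of the other 18 chromosomes, with Y left out, lay between -0.16 and -0.06, with 34.2 to 46.1% of genes above 0. In the treated pair chromosomes 8 and 11 had 0.37 and 0.32, and the others -0.17 to 0.25, the highest being X. Among genes at 5 FPKM or more in both untreated libraries the median ratio of p53-/- to p53+/+ was 1.38 on chromosome 8 (438 genes) and 1.30 on chromosome 11 (686 genes), against 0.933 pooled over the other chromosomes. Relative to that pool the ratios were 1.48 and 1.39.

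The higher medians were found along both chromosomes. In consecutive blocks of 100 genes the 6 blocks of chromosome 8 had medians of 0.35 to 0.55 and the 10 blocks of chromosome 11 had 0.25 to 0.42. The 95 blocks elsewhere lay between -0.24 and 0.28, and the highest of these, on chromosome 13, held 45 histone genes and had a median of -0.17 without them. Genes within 5 Mb of Trp53 had a median of 0.33 (129 genes), equal to that of chromosome 11 as a whole. Chromosomes 8 and 11 held 13.98% of the genes, 24.8% of the higher genes (113 of 456) and 5.13% of the lower genes (21 of 409). Treatment moved neither chromosome's median by more than 0.12 within a genotype. Of p53 target members 6 lie on these chromosomes, 2 of them lower, with a median of -0.20. DNA copy number was not measured, and its part in these values was not tested.

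**Figure D5:**
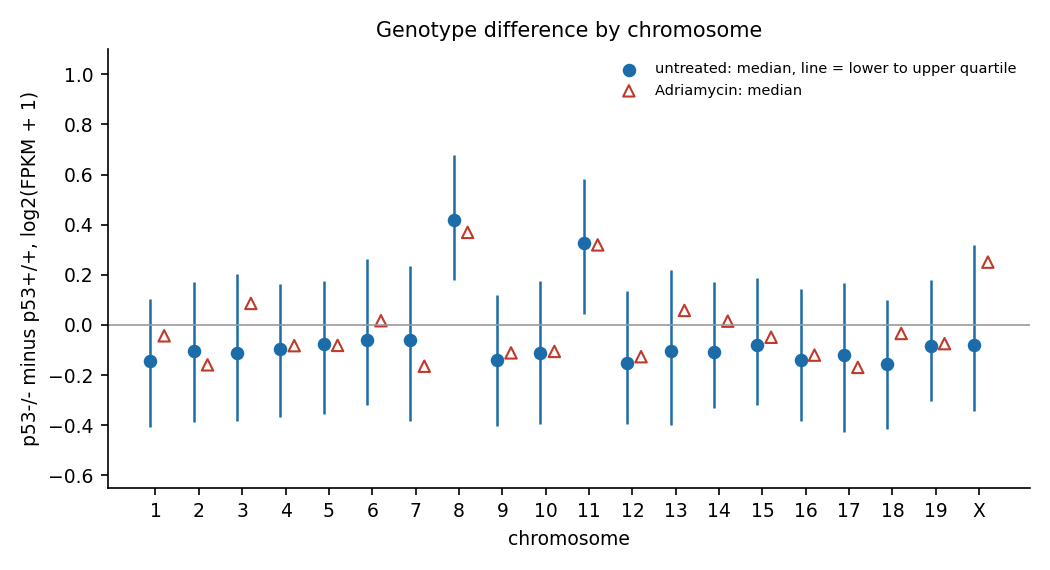
Median difference by chromosome on the log2(FPKM + 1) scale, p53-/- minus p53+/+, for the untreated pair (blue circles, with a line from the lower to the upper quartile of the genes) and the treated pair (red triangles). Chromosomes 8 and 11 stand at 0.42 and 0.33 untreated, while the other untreated medians lie from -0.16 to -0.06.

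The responses to Adriamycin of the lists lower or higher in the untreated pair are set side by side, since they share its libraries. Treated p53+/+ cells stood above untreated p53+/+ cells, by any amount, for each of the 21 lower p53 targets. The median response of all genes in p53+/+ cells was also above 0, at 0.05. By the step of 1, 4 of 15 matrix genes, 4 of 18 2-cell genes and 2 of 22 primitive endoderm genes were higher after treatment in p53+/+ cells. None was lower, beside 11.8% higher and 2.89% lower of all genes. In p53-/- cells 0 of 27, 0 of 16 and 0 of 13 were higher and none was lower, beside 0.41% and 0.502% of all genes.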

How the data were processed

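Untreated p53+/+ and p53-/- ES cells, 1 library each, were compared, with the treated pair beside them. The authors deposited transcript tables of FPKM with bounds and status, in Cufflinks layout per the file headers. The deposited coverage per transcript, a signal, was multiplied by transcript length and summed to estimate depth, 3.34 to 4.32 gigabases per library. Per the submitters' processing notes, the tools include Cufflinks, TopHat, TopHat2 2.0.5 and CASAVA 1.8.1, and the build is mm9. The Cufflinks version, the annotation, and the role of the enrichment kit are not given in the sources used here. Count tests do not apply to FPKM.

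Of 30769 rows, 30227 were named from RefSeq (GRCm38.p6) and 180 from GENCODE M21, used for names and promoters only. Unnamed rows (362) and short RNAs (819 rows, under 200 bases or of a short class) were left out. Transcripts were summed per gene, genes at 1 FPKM or more in either library were kept, and a pseudocount of 1 FPKM and a step of 1 were used. FPKM exceeded their own upper bound in 1525 to 2036 rows per library, and bounds are printed only where they hold the value.

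The comparison, the 25 lists and the tests were chosen with earlier results of these data known. Named genes are Trp53, list members and the 15 largest changes each way at 5 FPKM or more and status OK, with unnamed models left out. Any other was named after its values were seen, and some results are not reported here. Alternatives covered the pseudocount, filter, transcript choice, scaling, status, bounds, step and, added after the data were seen, chromosome medians. Python 3.11.15, pandas 2.3.3, numpy 2.4.6 and matplotlib 3.10.9 were used, and the calculations were tested on simulated data.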

Additional observations from a re-analysis of the deposited data

Results flagged for a closer look

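In 8 genes the genotype difference passed the step in both pairs of libraries with opposite signs. These contrasts of difference were not tested, and all 8 genes were named after their values were seen. Inpp5d, a lipid phosphatase, differed by -1.87 untreated and 2.73 treated, with 25.4 against 6.205 FPKM and then 0 against 5.63 FPKM. Its listed p53+/+ value was the one that moved, and whether the 0 is a measured level was not tested. Bmp4, a signal of mesoderm and of serum-free self-renewal, differed by -1.16 untreated and 1.21 treated, with 26.9 and 4.102 FPKM in the p53+/+ libraries and 11.5 and 10.8 FPKM in the p53-/- libraries. Fkbp10, a collagen chaperone, differed by 1.22 and -1.62, with 6.77 and 46.7 FPKM in p53+/+ and 17.1 and 14.5 FPKM in p53-/- cells.

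The others differed by 1.16 untreated and -1.16 treated for Adcy7 (an adenylate cyclase), 1.12 and -1.02 for Pgf (placental growth factor), and 1.21 and -1.09 for Cers1 (a ceramide synthase). The values were -1.58 and 1.32 for Cphx1 (a homeobox gene of early embryos) and -1.32 and 2.21 for the gene model Gm6083, whose FPKM lay outside its own bounds.

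The medians of 4 lists had opposite signs in the 2 pairs with a size of 0.1 or more in both, again untested. They were -0.36 untreated and 0.10 treated for core pluripotency, -0.37 and 0.19 for sex-linked genes, -0.11 and 0.49 for G1/S genes and -0.22 and 0.27 for apelin genes, of which 2 passed the filter. The signs were also opposite, with 1 median under 0.1 in size, for naive pluripotency (-0.67 and 0.0952) and HOX genes (-0.02 and 0.39).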

How the results depend on the processing

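No paired analysis was possible because each group has 1 library, and for the same reason no library could be left out. With a pseudocount of 0.1 FPKM 762 genes were higher and 747 lower, and the medians of the fibroblast identity and blood and endothelium lists were 1.15 and -1.34. With 5 FPKM the counts were 135 and 122, with 11 p53 targets, 5 primitive endoderm and 6 2-cell genes lower, and medians of 0.67 for contractile, -0.47 for primitive endoderm and -0.57 for 2-cell genes. Without a filter the last 2 medians were -0.85 and -0.96. With a filter of 5 FPKM 269 genes were higher, 294 lower and 6 primitive endoderm genes lower, and the medians were -2.74 for blood and endothelium and 1.44 for mesendoderm genes. The main transcript alone gave a contractile median of 0.99. Genes within their own bounds gave 6 lower 2-cell genes and a median of -0.96. A step of 1.5-fold gave 1309 higher and 1405 lower genes, with 37 p53 targets lower.

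No median or named gene past the step changed sign in the alternatives run. Of medians under the step, those of HOX and germline genes, near 0, changed sign, as did blood and endothelium without a filter (0.09) and mesendoderm within bounds (-0.13). The count of higher genes exceeded that of lower genes except under the 5 FPKM filter, the 1.5-fold step and without chromosomes 8 and 11 (343 higher, 388 lower). Under the scalings the all-gene median was -0.02 to 0.00, beside -0.05. Less the median of its chromosome, 120 of 132 named genes past the step were still past it, and with a pseudocount of 5 FPKM 76 were. The chromosome 8 median lay 0.22 to 0.52 above the highest other chromosome, and that of chromosome 11 0.13 to 0.43. Low genes and 1 library per genotype limit every value.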

Other observations

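Some gene families that were not in the lists, chosen after their values were seen, differed as groups. Of all genes past the filter 3.8% were higher and 3.41% were lower. Of 9 Xlr genes, X-linked relatives of a meiotic protein, all 9 were higher, with a median of 1.52 untreated and 1.59 in the treated pair. Only Xlr3a and Xlr3b reached the filter in both untreated libraries. The other Xlr genes passed only through the p53-/- library and could not lie below 0, so this count is no test of direction. Xlr3a had 3.11 against 17.7 FPKM untreated and 3.32 against 14.5 FPKM treated. All 4 metallothioneins, which bind zinc and copper, were higher, and all 4 lie on chromosome 8. Mt1 had 345 FPKM in p53+/+ against 1232 FPKM in p53-/- cells and Mt2 336 and 894 FPKM. The copies of Xlr are near-identical, so their single values are uncertain.

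Antigen presentation genes had 8 of 19 members higher and 1 lower, beside 3.8% and 3.41% of all genes, with a median of 0.61. Of the higher members Psmb8, Tap2, H2-Q7 and H2-Q8 passed only through the p53-/- library and could not lie below 0. In the treated pair 5 of the 8 were also higher, beside 60.3% of all higher genes. Of 22 members past the filter there, 8 were higher and 3 lower, among the latter Tap1 (-4.58). The higher members H2-Q7 (1.89) and H2-Q8 (1.23) overlap H2-Q9 (-0.62) and H2-Q6 (-0.63) in position, which were under the filter. How reads were divided between these models is uncertain. The immunoproteasome subunits Psmb8 and Psmb10 had 0.106 against 5.73 and 8.59 against 38.5 FPKM, and B2m, the light chain of MHC class I, 8.55 against 28.9 FPKM. Pramel genes, a rodent family of the early embryo, had 8 of 15 members lower and 1 higher, with Pramel31 at 18.2 against 1.72 FPKM.

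Of 52 replication-dependent histone genes 28 were higher and 1 was lower (median 1.04 untreated and 0.54 treated). H4c18 had 4.82 against 34.004 FPKM untreated and 13.3 against 26.7 treated, while H2bc11 had 4.99 against 26.96 and 5.23 against 4.601 FPKM. Most such mRNAs lack a poly(A) tail, and how much of each library was tailed RNA was not tested.

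Outside the p53 lists, and named after their values were seen, Ptpn14 (a phosphatase that restrains Yap) had 6.94 against 1.29 FPKM untreated and 54.96 against 1.43 FPKM treated. Ddit4l, an inhibitor of mTOR, had 5.67 against 0.649 and 40.9 against 1.02 FPKM, and Foxo3, a stress transcription factor, 17.7 against 5.32 and 42.2 against 5.64 FPKM. In all 3 both p53-/- libraries lay below both p53+/+ libraries.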
